A study of Mus musculus with 79 samples.

Results

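The formative pluripotency transcription factors described here are 6 genes, Otx2, Pou3f1, Foxd3, Zic2, Zic5 and Sox3, among 21316 genes with a row in at least 1 of 3 RNA-seq tables from mouse embryonic stem cells under retinoic acid (RA). They were taken by gene symbol from the table of a time course in E14 cells and from that of a time course in 3 clones. In the table of cells depleted of SCC1 they were found by the same transcript identifiers. All 6 had a row with reads in each table, and all 6 passed the filter on low counts in each. The set had been put forward as one whose members are lost fast under RA. It was put forward with earlier results of these data known, so the values below are no independent check of that description. Otx2 and Foxd3 fell within 2 to 6 h in every cell line measured. In fits of all libraries the falls of Pou3f1 and Zic5 passed the test at 24 h or later. Every RA-treated E14 library, from 2 h on, nevertheless had less Pou3f1 than both untreated ones. Zic2 stayed within 1 of its starting level on the log2 scale in E14 and on average over the clones, and Sox3 rose in both time courses.

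Formative pluripotency is the state between the naive pluripotency of the early inner cell mass and the primed state of the epiblast before gastrulation. Cells in this state become competent to form germ layers and germ cells. Otx2, an orthodenticle homeobox factor, drives the exit from the naive state and later patterns the forebrain, and it recruits Oct4 to enhancers of the epiblast. Pou3f1 (Oct6) is a POU domain factor of the epiblast and of neural progenitors, and Foxd3 is a forkhead repressor and enhancer regulator needed to maintain the epiblast and the neural crest. Zic2 and Zic5 are zinc finger factors of the epiblast and the neural plate that lie head to head on 1 chromosome. Sox3 is a SOXB1 factor of the epiblast and the neural plate, close in sequence to Sox2.

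The study used E14 mouse embryonic stem cells grown on gelatin with serum and leukemia inhibitory factor, a medium that holds a mixture of naive and more advanced cells, and treated them with 1 µM RA. Total RNA of wildtype E14 cells was sequenced before RA (2 libraries) and after 2, 4, 6, 48 and 72 h (4 libraries each) and 24 h (3 libraries), 25 libraries in all. The last time is 72 h in the sample titles and 74 h in another label field. Nuclear RNA of SCC1-mAID cells (genotype E14;Rosa26::Tir1;Scc1-mAID-eGFP) was sequenced in 3 libraries each of untreated cells, RA for 4 h, auxin (IAA) for 6 h, and auxin for 6 h with RA in its last 4 h. All 4 of these groups carry the Tir1 transgene and the tagged SCC1, the cohesin subunit that 500 µM auxin degrades as a protein. Nuclear RNA of 3 clones was sequenced before RA, at 2, 4 and 6 h, and at 24, 48 and 74 h, with 2 libraries of each clone at each time. Clone G4 (genotype E14;HoxTransEwt) kept a transient enhancer in the Hoxb locus, and clones E3 and H12 (genotype E14;HoxTransEdel) lack it. Each genotype is thus held by 1 or 2 clones, and a difference between clones cannot be told apart from the effect of the deletion. The series text calls the E14 libraries biological replicates and the SCC1-mAID ones triplicates. Nothing says that the 2 libraries of a clone at a time came from separate cultures, so p-values for the clones measure the spread between these libraries.

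Depth ran from 2352114 to 21082331 reads a library for E14, from 3126338 to 7498981 for SCC1-mAID cells and from 4754309 to 10450047 for the clones. Levels are given as CPM, reads scaled to a common library size, after TMM scaling, an estimate of library size that is robust to a few strongly changed genes. Changes are log2 fold changes with their standard error (SE) from edgeR's quasi-likelihood test, with Benjamini-Hochberg adjustment over all genes tested in that table, and a change is said to pass at an adjusted p under 0.05. All 11 general pluripotency genes checked, Pou5f1 and Sox2 among them, had reads in every untreated group. One split among the libraries matters for E14. At 2 to 24 h, the 7 libraries numbered 1 or 2 had a summed level of 10 fibroblast markers of 629 to 1295 CPM, against 186 to 305 in the 8 libraries numbered 3 or 4, and 249 and 253 at 0 h. For 9 trophoblast markers the same ranges were 187 to 306, 123 to 185, and 125 and 132. All 10 fibroblast markers had reads in each E14 group, and of the trophoblast markers Elf5 had none at 24 h and 72 h. Both 0 h libraries are numbered 3 and 4, so E14 results are also given from libraries 3 and 4 alone where this changes them. In bulk RNA, fewer cells that express a gene and less RNA per cell cannot be told apart.

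In the mm10 build, Otx2 lies on chromosome 14 at 48657677 to 48667644 on the minus strand. Zic5 (122459160 to 122465658, minus strand) and Zic2 (122475384 to 122480328, plus strand) lie on the same chromosome. Foxd3 (99656299 to 99658671) and Pou3f1 (124657646 to 124660655) are both on the plus strand of chromosome 4. Sox3 is on the minus strand of chromosome X at 60891366 to 60893430. Pou3f1, Foxd3 and Sox3 have a single exon, and none of the 6 overlaps another gene of the tables. RefSeq promoter windows (GRCm38.p6, 250 bases before to 50 after the gene start) were matched for 3 of the 6. Pou3f1, Zic2 and Sox3 had no window, so all that were matched are shown. Foxd3 and Otx2 are the pair that fell early, and Zic5 is a member that fell late. The Otx2 window is that of the transcript start used for nuclear RNA, 1 of 4 Otx2 windows in the table. Each is written 5′ to 3′ along the gene, with matches to a searched motif in capitals.
Foxd3, chr4:99656049-99656348, plus strand: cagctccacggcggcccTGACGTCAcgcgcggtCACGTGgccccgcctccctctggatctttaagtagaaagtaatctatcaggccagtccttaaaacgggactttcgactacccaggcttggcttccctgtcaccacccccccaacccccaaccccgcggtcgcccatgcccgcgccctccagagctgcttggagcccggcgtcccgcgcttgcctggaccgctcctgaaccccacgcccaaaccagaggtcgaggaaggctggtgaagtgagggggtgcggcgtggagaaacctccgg
Otx2, chr14:48667595-48667894, minus strand: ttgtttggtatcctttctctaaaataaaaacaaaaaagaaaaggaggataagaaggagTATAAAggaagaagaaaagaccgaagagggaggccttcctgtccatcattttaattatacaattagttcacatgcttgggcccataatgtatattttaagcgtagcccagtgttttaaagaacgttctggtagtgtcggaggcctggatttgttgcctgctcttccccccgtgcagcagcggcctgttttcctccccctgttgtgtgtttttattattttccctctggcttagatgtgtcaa
Zic5, chr14:122465609-122465908, minus strand: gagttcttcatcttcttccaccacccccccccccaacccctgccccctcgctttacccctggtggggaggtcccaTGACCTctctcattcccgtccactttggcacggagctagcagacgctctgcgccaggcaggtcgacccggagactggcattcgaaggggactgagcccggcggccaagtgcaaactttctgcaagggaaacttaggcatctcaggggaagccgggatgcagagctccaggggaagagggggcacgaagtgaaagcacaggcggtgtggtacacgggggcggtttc
The motifs were searched on both strands. AGGTCA, the core letters read by nuclear receptors such as the RA receptors, was found once in the Zic5 window, as TGACCT at position -175 from the gene start, and 16.3% of 32851 windows of the same length held it. Its direct repeats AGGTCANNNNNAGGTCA and AGGTCANNAGGTCA, which overlap it by construction, were in none of the 3 windows and in 0.00913% of all windows each. The Foxd3 window held TGACGTCA, the cyclic AMP response element (1.79% of windows), at -233, and CACGTG, an E-box (7.15%), at -217. In the Otx2 window TATAAA, the letters of a TATA box (13.6%), was found at -192. The octamer ATGCAAAT (1.74%) and CCAAT (37.4%) were in none of the 3. The windows also differed in base composition, with 65.7% G and C in Foxd3, 62.7% in Zic5 and 41.7% in Otx2, against a median of 52.7%. Matches describe the letters in these windows alone.

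Per kilobase of exon, untreated E14 cells held most Foxd3 among the 6. The authors' FPKM value (fragments scaled to transcript length and library size) was 17.1 ± 1.64 (SD, n = 2) for Foxd3, 12.2 ± 1.07 for Otx2, 11.6 ± 0.113 for Zic2, 11.1 ± 0.00752 for Pou3f1, 6.09 ± 0.585 for Zic5 and 0.954 ± 0.0509 for Sox3. Otx2, Zic2 and Pou3f1 followed each other closely, with Otx2 and Zic2 within 1 SD of each other, while Zic5 and Sox3 stood apart from their neighbours in this order. After 72 h the order had changed. Zic2 was highest at 14.2 ± 4.35 FPKM (SD, n = 4), then Sox3 at 3.67 ± 1.29, Zic5 at 2.03 ± 0.529, Pou3f1 at 1.39 ± 0.776, Foxd3 at 0.789 ± 0.407 and Otx2 at 0.523 ± 0.37. At that time only Zic2 and Sox3 were separated from the next gene by more than the spread of either.

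In E14 total RNA, Foxd3 and Otx2 fell early, the falls of Pou3f1 and Zic5 passed late, Sox3 rose and Zic2 did not pass the test at any time. Of the 6, 1 passed at 2 h, where 0.497% of all genes tested did, 2 at 4 h (2.44%) and 3 at 6 h (3.96%). Later the counts were 4 at 24 h (27.4%), 5 at 48 h (55.7%) and 5 at 72 h (59.7%), times at which change was common across the transcriptome. The authors' deposited table classes Foxd3 as repressed from 2 h, Otx2 as repressed from 6 h, Pou3f1 as repressed and Zic5 as downregulated from 48 h, Zic2 as stably active and Sox3 as upregulated from 24 h.

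Foxd3, the forkhead factor, was the member with the earliest change that passed in the fit of all E14 libraries. With libraries 3 and 4 alone Otx2 passed at 2 h as well. The level of Foxd3 was 67.3 and 77.5 CPM in the untreated libraries and 18.2, 26.5, 27.7 and 24.9 after 2 h of RA (log2 fold change -1.58 ± 0.21, adjusted p = 7.5e-05). The untreated and 2 h libraries did not overlap, and the drop was present in each of the 4. It then held between 15.3 and 25.9 at 4 h and between 17.2 and 23.5 at 6 h, without a step that passed between these times. A second fall came by 24 h, where the libraries read 6.29, 5.82 and 4.13 (against 6 h, log2 fold change -1.90 ± 0.26, adjusted p = 1.62e-05). By 48 h the level was 3.48, 1.85, 3.79 and 1.19 (against 24 h, log2 fold change -1.04 ± 0.37, adjusted p = 0.0442), and the total change at 72 h was -4.62 ± 0.28 (adjusted p = 1.34e-12). Foxd3 thus fell before 2 h and again between 6 h and 48 h, with a level stretch between these falls.

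Otx2, the homeobox factor, had a fall of similar size whose libraries disagreed. Untreated libraries read 49.7 and 44.2 CPM. After 2 h the 4 libraries read 4.59, 7.3, 20.5 and 19 in order of their number, and the same split appeared at 4 h (4.96, 6.88, 16.2 and 16) and 6 h (4.46, 4.26, 15.9 and 14.3). All treated libraries were below both untreated ones, with libraries 1 and 2 at 4.26 to 7.3 and libraries 3 and 4 at 14.3 to 20.5 over these times. The change was -1.88 ± 0.56 at 2 h (adjusted p = 0.22), -2.08 ± 0.56 at 4 h (adjusted p = 0.0535) and -2.29 ± 0.57 at 6 h (adjusted p = 0.0258), so only the last of these passed. The call at 6 h was lost without either 0 h library and without 6 h library 1 or 2 (adjusted p 0.0176 to 0.207 over all libraries left out). With libraries 3 and 4 alone the fall was smaller and passed throughout (-1.24, adjusted p = 3.51e-07 at 2 h and -1.54, adjusted p = 5.16e-09 at 4 h). The low Otx2 libraries are those with the high fibroblast and trophoblast sums given above. Whether cells with these markers had a part in the Otx2 level was not tested. At 24 h the libraries read 2.9, 12.7 and 11.4, and by 48 h all 4 were between 2.21 and 3.71. The change at 72 h was -4.79 ± 0.78 (adjusted p = 3.24e-05), on 1 to 9 reads per library.

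Pou3f1, the POU factor, was lower from 2 h, but in the fit of all libraries its fall passed late. The untreated libraries read 59.6 and 59.9 CPM. Those at 2 h read 40.7 to 53.6 and those at 4 h 27.5 to 52.9, all below both untreated ones, without a change that passed. At 6 h they read 36.7, 33.2, 43.1 and 35.8 (log2 fold change -0.68 ± 0.25, adjusted p = 0.15). With libraries 3 and 4 alone the change at 6 h passed (-0.55, adjusted p = 0.0156). At 24 h the level was 26.1, 33.2 and 44.4 (log2 fold change -0.80 ± 0.27, adjusted p = 0.0313), which did not pass when any compared library other than 24 h library 4 was left out (adjusted p 0.0175 to 0.133). The later changes were larger, with 21.6, 16.3, 26.6 and 13.1 at 48 h (log2 fold change -1.61 ± 0.27, adjusted p = 2.24e-05) and 10.2, 7.92, 3.93 and 2.89 at 72 h (log2 fold change -3.23 ± 0.30, adjusted p = 5.26e-09). At 72 h libraries 1 and 2 were again apart from 3 and 4, now on the high side. Their summed level of 16 naive pluripotency genes at 48 to 72 h was 1726 to 2394 CPM, against 639 to 1135 in libraries 3 and 4, and its part in the Pou3f1 level was not tested.

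Zic5, the zinc finger factor, had 1 step between successive times that passed, from 24 h to 48 h. It read 27.6 and 24.2 CPM at 0 h and between 14.9 and 37.6 from 2 h to 6 h, where no change passed. At 24 h it was at 24.2, 33.9 and 17.5, and at 48 h at 12.5, 4.82, 11.4 and 5.14 (48 h against 24 h, log2 fold change -1.56 ± 0.29, adjusted p = 0.000486). The level at 72 h was 5.58, 6.02, 8.47 and 8.26, and every library at 48 h and 72 h lay below every earlier one. Its head-to-head partner Zic2 did not follow. Zic2 read 61.8 and 61.3 at 0 h, 76.7, 84.3 and 78.1 at 24 h and 43.7, 57.9, 85.3 and 61.9 at 72 h. The fitted change of Zic2 was 0.37 ± 0.33 at 24 h (adjusted p = 0.429), -0.38 ± 0.31 at 48 h (adjusted p = 0.322) and 0.02 ± 0.31 at 72 h (adjusted p = 0.969). In libraries 3 and 4 alone a rise passed at 24 h (0.39, adjusted p = 0.0349) and a fall at 48 h (-0.65, adjusted p = 0.00167).

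Sox3 was the 1 member that rose. From 3.64 and 3.39 CPM it went to 6.8, 5.5, 6.07 and 8.48 at 4 h (log2 fold change 0.94 ± 0.24, adjusted p = 0.0273) and 5.57, 5.68, 7.37 and 6.54 at 6 h (log2 fold change 0.84 ± 0.24, adjusted p = 0.0426). All early treated libraries were above both untreated ones, but these early calls were close to the threshold. Under the authors' size factors they did not pass (0.91, adjusted p = 0.0673 at 4 h and 0.77, adjusted p = 0.111 at 6 h). The call at 4 h was lost without either 0 h library and without 4 h library 1 or 4 (adjusted p 0.0234 to 0.373). The call at 6 h was lost when any compared library other than 6 h library 1 was left out (adjusted p 0.0478 to 0.396). The later rise was larger, with 9.67, 10.4 and 14.3 at 24 h (log2 fold change 1.69 ± 0.26, adjusted p = 2.87e-05), 13.2, 12.6, 13.9 and 13.1 at 48 h (log2 fold change 1.91 ± 0.25, adjusted p = 5.35e-07) and 12.2, 6.33, 11.8 and 13.6 at 72 h (log2 fold change 1.63 ± 0.25, adjusted p = 3.83e-06).

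**Figure D1:**
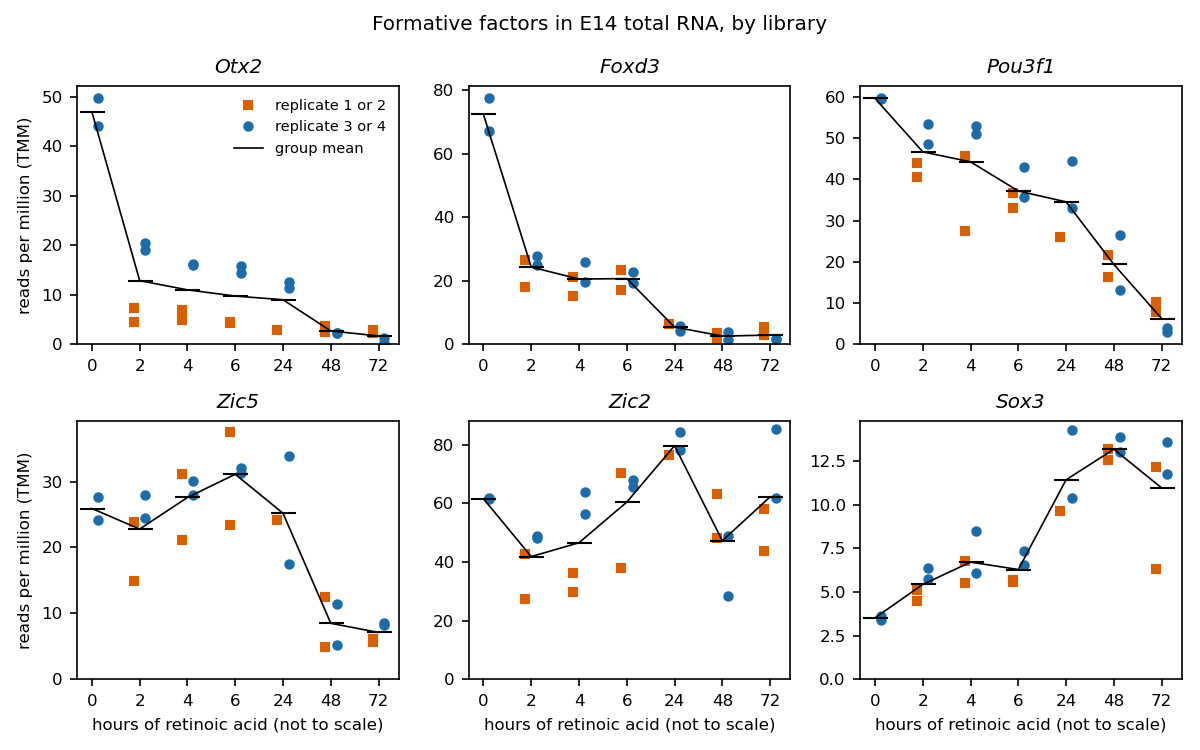
CPM (TMM scaled, linear axis from 0) of each factor in every E14 library by hours of RA, with squares for libraries 1 and 2, circles for libraries 3 and 4 and the line through group means. Otx2 and Foxd3 are below both untreated libraries from 2 h on, Zic5 stays up to 24 h, and Sox3 goes from about 3.51 to 13.2 CPM on average by 48 h.

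The SCC1-mAID cells tested whether 4 h of RA changed these genes when the cohesin ring was depleted. In nuclear RNA, Otx2 and Foxd3 fell with RA both with and without auxin, and the other 4 factors did not pass. Of the 6, 2 passed with RA alone (2.57% of all genes tested) and 2 with RA under auxin (2.64%). Auxin degrades the SCC1 protein, so the Rad21 transcript that encodes it is no check of depletion.

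Otx2 read 40.7, 41.1 and 41.4 CPM in untreated cells and 14.3, 10.7 and 9.13 with RA (log2 fold change -1.85 ± 0.20, adjusted p = 1.87e-05). With auxin alone it read 38.8, 43.9 and 35.5, and with auxin and RA 14.3, 12.2 and 8.13 (log2 fold change -1.74 ± 0.20, adjusted p = 3.2e-05). The RA-treated libraries lay below every library without RA, and the libraries with and without auxin overlapped. The difference between the 2 responses was 0.11 ± 0.28 on the log2 scale (SE, adjusted p = 0.925). Foxd3 read 60.8, 72.5 and 59.3 untreated, 20.1, 18.7 and 14.3 with RA (log2 fold change -1.86 ± 0.18, adjusted p = 5.06e-06), 64, 66.5 and 47.1 with auxin and 20.2, 18.4 and 22.6 with both (log2 fold change -1.55 ± 0.17, adjusted p = 3.2e-05). Its difference of responses was 0.32 ± 0.25 (adjusted p = 0.746). Under the authors' size factors, which moved the median of all genes by 0.19 on the log2 scale, neither gene passed with RA alone (Otx2 -1.68, adjusted p = 0.0678, and Foxd3 -1.66, adjusted p = 0.064), with the direction kept.

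None of the 6 had a difference of responses that passed by edgeR. At an unadjusted p under 0.05 there were 0, and 0 by DESeq2 and by limma, and 0% of all genes passed. The SEs of these differences are wide, so equal responses were not shown. Auxin alone also gave 0 of 6 by edgeR (0.235% of all genes), 2 at an unadjusted p under 0.05, 1 by DESeq2 and 0 by limma. The gene closest to the threshold was Pou3f1, which read 24, 31.3 and 42.3 untreated and 15, 15.2 and 16.8 with auxin (log2 fold change -1.04 ± 0.22, adjusted p = 0.056). All 3 auxin libraries were below all 3 untreated ones, and the change passed by DESeq2 (-1.05, adjusted p = 0.00349). The level of Pou3f1 was 19.7, 20.3 and 23.3 with RA and 12.7, 10.8 and 18.9 with both agents. Zic2 was at 62.6, 77.5 and 62.9 untreated and 54.4, 49.1 and 46 with RA (log2 fold change -0.44 ± 0.19, adjusted p = 0.369). Zic5 read 31.5 to 37.7 untreated and 36.7 to 40.3 with RA (log2 fold change 0.17 ± 0.18, adjusted p = 0.843). Without the second library of both agents, Zic2 and Zic5 also passed as lower with RA under auxin. Sox3, at 12 to 25 reads per library, read 3.35 to 3.81 untreated and 3.12 to 3.97 with RA (log2 fold change 0.06 ± 0.37, adjusted p = 0.985).

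**Figure D2:**
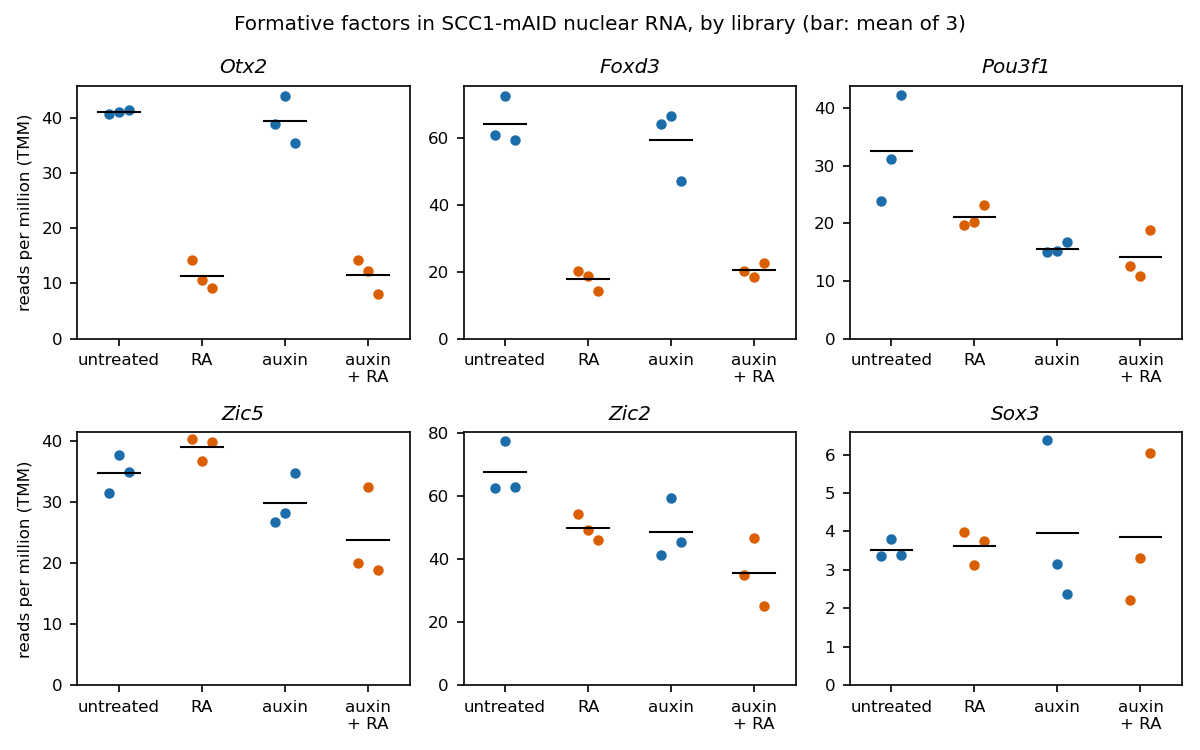
CPM (TMM scaled, linear axis from 0) of each factor in the 12 SCC1-mAID nuclear libraries, with blue points without RA, orange points with RA for 4 h and a bar at the mean of 3. Otx2 and Foxd3 drop with RA both without and with auxin, and Pou3f1 is lower in the auxin libraries than in the untreated ones.

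In the nuclear RNA of the 3 clones, Otx2 and Foxd3 were again the pair that fell early, and Pou3f1 and Zic5 fell later. On average over G4, E3 and H12, 2 of 6 passed at 2 h (20.7% of all genes tested), 3 at 4 h (20.6%), 3 at 6 h (20.3%), 4 at 24 h (55.5%), 6 at 48 h (69.8%) and 6 at 74 h (73.7%).

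Otx2 passed in each clone at 2 h. In G4 it went from 15.7 and 15.6 to 5.14 and 4.34 CPM, in E3 from 20.7 and 23.8 to 7.22 and 8.06, and in H12 from 18.9 and 21.1 to 3.87 and 4.13. The mean change was -1.86 ± 0.19 at 2 h (adjusted p = 2.18e-08) and -1.34 ± 0.18 at 6 h (adjusted p = 1.29e-06), so the fall was no deeper at 6 h than at 2 h. It was later, with -2.32 ± 0.19 at 24 h and -5.23 ± 0.27 at 48 h (against 24 h, log2 fold change -2.90 ± 0.33, adjusted p = 1.91e-08). At 74 h the 2 G4 libraries had no Otx2 read. Against a floor of 3 reads over both libraries, 0.19 CPM, this was at least 82.4-fold lower than the 15.6 at 0 h. E3 had 0 and 3 reads at 74 h and H12 had 5 in each library.

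Foxd3 fell from 25.9 and 22.7 to 7.71 and 12.1 CPM by 4 h in G4, from 19.4 and 20.6 to 5.93 and 10.5 in E3 and from 22.3 and 25.1 to 5.7 and 6.51 in H12. Libraries at 0 h and 4 h did not overlap in any clone, and each clone passed at 4 h and at 6 h. At 2 h the fall passed on average, in G4 and in H12, but not in E3, which read 11.2 and 11.8 CPM then. The mean change was -1.51 ± 0.18 at 4 h (adjusted p = 1.67e-07). A further step came between 6 h and 24 h (log2 fold change -2.95 ± 0.26, adjusted p = 1.22e-10), as in E14, and left 0.42 to 2.05 CPM. At 48 h and 74 h 0 to 8 reads per library remained.

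The other falls were late. Pou3f1 changed by -0.23 ± 0.18 on average at 6 h (adjusted p = 0.431) and 0.18 ± 0.17 at 24 h (adjusted p = 0.402), then fell to -1.27 ± 0.19 at 48 h (adjusted p = 5.55e-07) and -2.93 ± 0.23 at 74 h. Zic5 passed from 24 h (log2 fold change -0.47 ± 0.14, adjusted p = 0.00456), was lowest at 48 h (-1.78 ± 0.15) and recovered in part by 74 h (74 h against 48 h, log2 fold change 0.87 ± 0.16, adjusted p = 5.66e-05). In G4 its libraries read 28.9 and 19.9 at 0 h, 8.14 and 9.02 at 48 h and 16.1 and 21.1 at 74 h. This return was not seen as a passing step in E14 between 48 h and 72 h (log2 fold change -0.29 ± 0.33, adjusted p = 0.59), and the difference between the cell lines was not tested.

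Zic2 moved up and down by less than 1 on the log2 scale. Its mean change was 0.33 ± 0.14 at 6 h (adjusted p = 0.083), -0.32 ± 0.14 at 48 h (adjusted p = 0.0435) and 0.49 ± 0.14 at 74 h (adjusted p = 0.00173). The fall at 48 h did not pass with DESeq2's size factors (-0.29, adjusted p = 0.0622) or by its test (-0.29, adjusted p = 0.0793), and was lost in 9 of 12 fits that left out 1 library (adjusted p 0.0191 to 0.327). It was -0.58 ± 0.25 in E3, -0.29 ± 0.24 in H12 and -0.07 ± 0.23 in G4, none of which passed alone (adjusted p = 0.0541, 0.308 and 0.816). The pair Zic2 and Zic5 both rose from 48 h to 74 h (Zic2, log2 fold change 0.81 ± 0.14, adjusted p = 2.63e-05).

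Sox3 rose from 4 h on. The mean change was 0.84 ± 0.30 at 4 h (adjusted p = 0.0471), 2.08 ± 0.26 at 24 h (adjusted p = 7.15e-08) and 3.17 ± 0.24 at 74 h (adjusted p = 3.66e-13). The call at 4 h was lost in 9 of 12 fits that left out 1 library (adjusted p 0.0172 to 0.301). In G4 the libraries went from 2.31 and 1.02 to 18.3 and 15.4 CPM, without overlap between 0 h and any time from 24 h on.

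**Figure D3:**
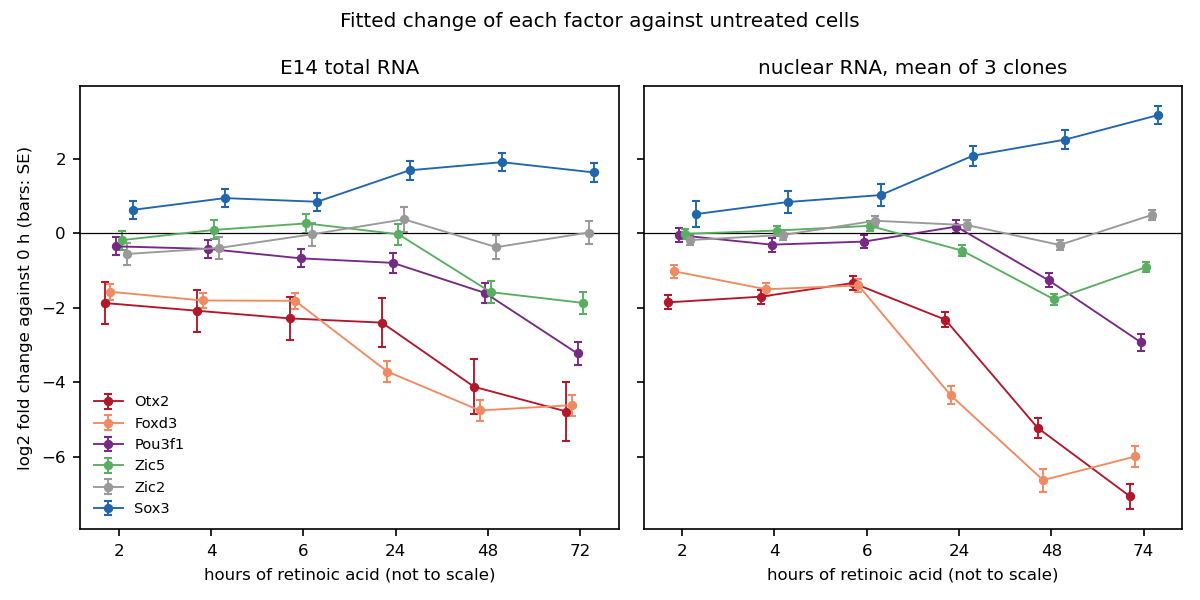
Log2 fold change of each factor against 0 h with its SE, by hours of RA, in E14 total RNA (left) and as the mean of 3 clones in nuclear RNA (right). Otx2 and Foxd3 are below -1 at each time from 2 h in both, and Sox3 is above 0 throughout; the mean for Otx2 at 74 h includes G4, which had no Otx2 read then, so its size depends on the fit.

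Deletion of the Hoxb enhancer was compared by setting the mean of E3 and H12 against G4 at each of 7 times. Of 42 tests on the 6 factors, 8 passed, all lower in the deletion clones, where 5.99% of all gene tests passed. They were Pou3f1 at 0, 2, 4 and 6 h, Sox3 at 48 h and 74 h, Zic2 at 48 h and Zic5 at 74 h. For the difference in RA response between deletion and wild type, 0 of 36 tests passed by edgeR (1.21% of all gene tests), 3 at an unadjusted p under 0.05, and 0 by DESeq2 and by limma. The largest fitted value among them, 4.09 for Otx2 at 74 h, rests on the absence of reads in G4.

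For Pou3f1 the low clone was H12. At 0 h Pou3f1 read 27.6 and 20.1 CPM in G4, 31.4 and 15.3 in E3 and 8.46 and 4.29 in H12. H12 against G4 was -1.87 ± 0.32 on the log2 scale at 0 h (adjusted p = 9.99e-05) and -2.70 ± 0.34 at 6 h (adjusted p = 1.19e-06), while E3 against G4 was -0.03 ± 0.28 at 0 h (adjusted p = 0.997). E3 against H12, 2 clones with the same deletion, differed by 1.84 ± 0.32 at 0 h (adjusted p = 0.000128) and passed at 0, 2, 4 and 6 h. Over all 6 factors 7 of 42 tests of E3 against H12 passed (11.8% of all gene tests). In H12 Pou3f1 then rose to 11.8 and 12 at 24 h (log2 fold change 0.87 ± 0.33, adjusted p = 0.0406) before it fell to 2.14 and 2.94 at 74 h. Its response differed from that of G4 at 48 h (log2 fold change 2.30 ± 0.46, adjusted p = 0.00303, where 4.23% of genes passed) and at 74 h (log2 fold change 1.94 ± 0.57, adjusted p = 0.0228, 12.4%). At 48 h all 6 libraries lay between 3.93 and 8.23, with 5.75 and 5.77 in G4, 8.01 and 3.93 in E3 and 7.3 and 8.23 in H12. These contrasts of a single deletion clone with G4 were chosen after the values were seen.

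Utp11, the nearest gene after Pou3f1 at 18108 bases, read 20.1 ± 0.472 (SD, n = 2) in H12 and 19.9 ± 2.93 in G4 at 0 h. Sums of other marker lists also differed in H12. At 0 h the trophoblast sum was 21.3 and 26.4 CPM in H12 against 41.3 and 71.2 in G4, and the naive pluripotency sum was 2876 and 3001 against 2142 and 2561. Their part in the Pou3f1 level was not tested.

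Sox3 read lower in both deletion clones at 48 h and 74 h. At 48 h it read 16.4 and 15.1 in G4, 6.44 and 4.86 in E3 and 3.28 and 3.78 in H12 (deletion against wild type, log2 fold change -1.83 ± 0.27, adjusted p = 4.81e-05). At 74 h it read 18.3 and 15.4, 6.99 and 10.6 and 6.59 and 9.52 in the same order (log2 fold change -0.997 ± 0.26, adjusted p = 0.00719). The libraries of G4 lay above all 4 of the deletion clones at both times. They did so at 24 h as well, at 5.91 to 10.2 in G4, 3.22 to 5.55 in E3 and 3.53 to 3.55 in H12. Deletion against wild type did not pass at 24 h. The summed level of 16 anterior neural and neural progenitor genes moved the same way, at 805 and 812 in G4 at 48 h against 512 to 699 in E3 and 595 to 698 in H12, and its part was not tested. Zic5 at 74 h read 16.1 and 21.1 in G4, 9.17 and 9.15 in E3 and 8.12 and 12.7 in H12 (log2 fold change -0.92 ± 0.21, adjusted p = 0.00255). Zic2 at 48 h read 36.7 and 33.7, 15.4 and 14.3 and 31 and 25.5 (log2 fold change -0.78 ± 0.20, adjusted p = 0.021), and E3 alone was also below H12 (log2 fold change -0.93 ± 0.25, adjusted p = 0.0111).

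At 74 h the early pair was read more often in H12 than in G4. Otx2 read 0.766 and 0.7 and Foxd3 0.766 and 1.12 CPM in H12, against 0 and 0 for Otx2 and 0.225 and 0.144 for Foxd3 in G4 (H12 against G4 for Foxd3, log2 fold change 2.23 ± 0.90, adjusted p = 0.0669). The response of Otx2 at 74 h differed between H12 and G4 (adjusted p = 0.0328), with a fitted size that depends on the absence of reads in G4. In the same libraries the summed level of 15 extra-embryonic endoderm genes was 22923 and 25194 CPM in H12, against 3035 and 3791 in G4, and the naive pluripotency sum was 270 and 412 against 92.2 and 122. The part of these sums in the Otx2 and Foxd3 levels was not tested.

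**Figure D4:**
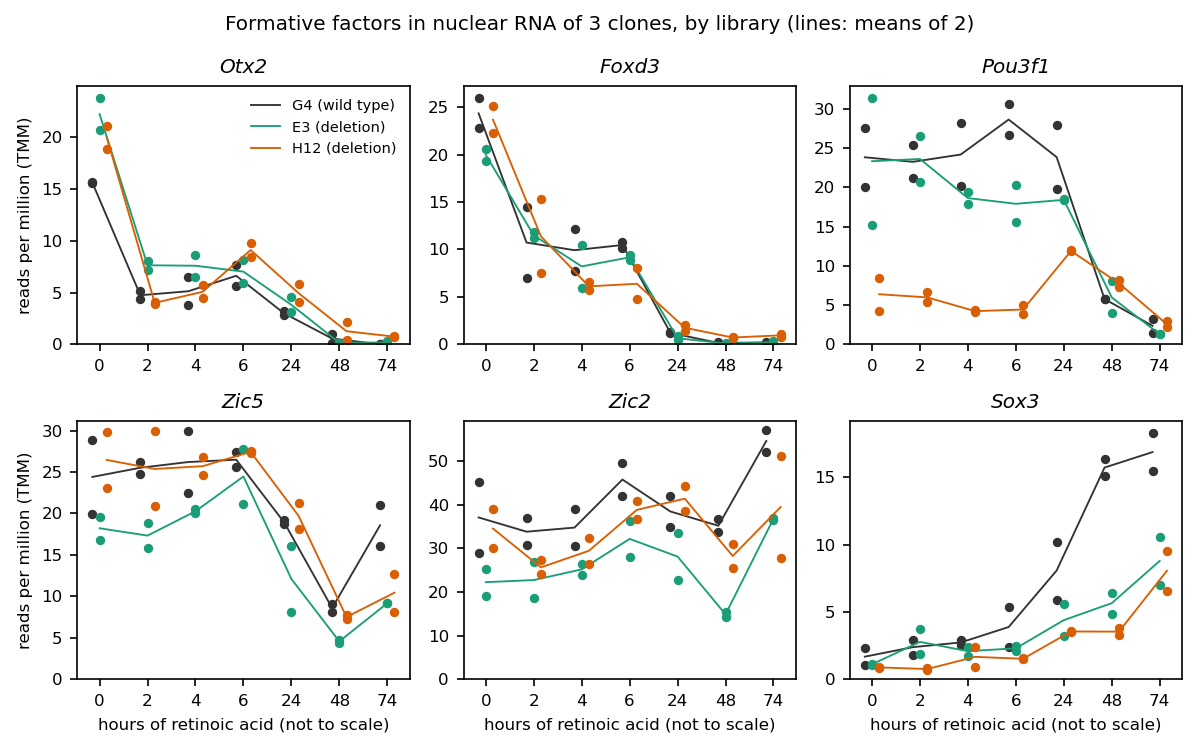
CPM (TMM scaled, linear axis from 0) of each factor by hours of RA in clones G4, E3 and H12, with a point for each library and a line through the mean of 2. Pou3f1 is low in H12 from 0 h to 6 h, Sox3 reaches 15.7 in G4 at 48 h and stays lower in E3 and H12, and Otx2 and Foxd3 fall in all 3.

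Most relatives of the 6 factors that were tested rose late. At 72 h in E14, family relatives in order of change were Zic1 (6.33 ± 0.57), Foxd2 (4.80 ± 0.75), Foxd1 (4.66 ± 0.53), Pou3f3 (4.20 ± 0.69), Sox1 (3.89 ± 0.54) and Pou3f2 (3.51 ± 0.62), all of which rose. Foxd4 did not pass (log2 fold change 1.20 ± 1.18, adjusted p = 0.392). The pluripotency factor Sox2 fell (-0.88 ± 0.24). So 6 of 9 tested relatives rose and 2 fell, Sox2 among them, where 59.7% of all genes passed, with a median of 3.89 against 0.0047 over all genes. At 6 h the change was -0.31 ± 0.24 for Sox2 and 0.94 ± 0.84 for Pou3f3. In the clones at 74 h 7 of 9 rose, with Zic4 (6.92 ± 0.55) beside the same 6, and 2 fell, Sox2 among them, where 73.7% of all genes passed. At 0 h some of the risers had no read in a clone. These were Zic4 in G4, Pou3f2, Foxd1 and Foxd2 in E3, and Pou3f3 and Foxd2 in H12. The fitted sizes of their rises thus depend on the absence of reads. Within the families, Pou3f1 thus went down at a time when Pou3f2 and Pou3f3, factors of neural progenitors, went up. Foxd3 was down while Foxd1 and Foxd2 were up, and Sox3 rose with Sox1 while Sox2 fell.

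The nearest neighbours of the members were followed in the same tables. Otx2os1, a long non-coding RNA gene on the other strand that starts 1643 bases from Otx2, fell with it in the clones at 2 h (log2 fold change -1.55 ± 0.18, adjusted p = 2.21e-07). At 24 h its mean change did not pass (log2 fold change 0.23 ± 0.16, adjusted p = 0.218), and it fell at 74 h (-4.17 ± 0.24). The mean at 24 h averages clones that differed. In H12 it read 17.2 and 16.8 at 0 h and 28.7 and 38.3 at 24 h, in E3 16.9 and 26.7 and 12.3 and 14.1, and in G4 8.09 and 5.75 and 6.91 and 12. The 24 h libraries thus lay above those at 0 h in H12, below them in E3, and overlapped them in G4. At 2 h all 3 clones were below their 0 h libraries. In SCC1-mAID cells its change with RA did not pass (log2 fold change -0.64 ± 0.32, adjusted p = 0.461). On the other side of Otx2, Tmem260 was 142546 bases away and rose late (1.30 ± 0.21 at 72 h in E14). In the clones Tmem260 was also lower at 2 h than at 0 h, so a fall at 2 h was not particular to Otx2os1. Its mean went from 25.9 to 14.4 CPM in G4, from 26 to 15.4 in E3 and from 27.1 to 16.6 in H12. At 6 h it was 23.7, 25.9 and 28.2 in the same order. The gene 2610035F20Rik lies between Zic5 and Zic2 and had too few reads to follow, 0 to 11 per library. Gm5089, on the far side of Zic5, rose in the clones at 6 h (log2 fold change 1.08 ± 0.20, adjusted p = 0.000169). Beside Foxd3, Alg6 changed by -0.35 ± 0.09 in the clones at 4 h (adjusted p = 0.00347), and Atg4c rose late (1.30 ± 0.23 at 72 h in E14). Pcca, beyond Zic2, rose in E14 at 72 h (0.86 ± 0.18). In the clones Pcca too was lower at 2 h than at 0 h. Its mean went from 144 to 98.6 CPM in G4, from 147 to 104 in E3 and from 163 to 113 in H12. C230004F18Rik, the listed neighbour of Sox3 at 222947 bases, rose in the clones at 74 h (5.60 ± 0.74). At 0 h C230004F18Rik read 0 CPM in each library of E3 and H12, and 0 and 0.128 in G4. The fitted size of its rise thus depends on the absence of reads. Of 1700057H15Rik, before Pou3f1, the change at 74 h was -1.72 ± 0.47.

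Other genes of the formative and primed states, signalling ligands, DNA methyltransferases and transcription factors, were followed as a list of 22. In E14 at 6 h 1 rose and 4 fell of 22 tested (median log2 fold change -0.31), beside a median of 0.03 over all genes, of which 3.96% passed. The largest falls were in Fgf5 (-1.55 ± 0.34), the growth factor that marks the epiblast, and Grhl2 (-1.04 ± 0.14), an epithelial enhancer factor, and the 1 rise was in Tead2 (0.48 ± 0.14). At 72 h 6 rose and 15 fell of 22 tested (median log2 fold change -1.95), where 59.7% of all genes passed, led by Tdgf1 (-4.83 ± 0.67), the Nodal coreceptor, and Gdf3 (-3.74 ± 0.21). Sall2 (1.94 ± 0.34) and Tead2 (1.76 ± 0.15) rose most. In SCC1-mAID cells with RA 0 rose and 4 fell of 22 tested (median log2 fold change -0.36), where 2.57% of all genes passed, among them Lef1 (-1.34 ± 0.17) and Fgf15 (-1.21 ± 0.20). In the clones 3 rose and 9 fell of 22 tested (median log2 fold change -0.32) at 6 h, with Fgf15 (-1.15 ± 0.14) and Tdgf1 (-0.91 ± 0.23) lowest and Dnmt3a (0.58 ± 0.09) highest, and 8 rose and 12 fell of 22 tested (median log2 fold change -1.84) at 74 h. Of all genes, 20.3% passed at 6 h and 73.7% at 74 h.

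Of the naive pluripotency genes, 0 rose and 1 fell of 16 tested (median log2 fold change -0.19) in E14 at 6 h, where 3.96% of all genes passed, the 1 being Socs3 (-1.37 ± 0.16), a feedback inhibitor of LIF signalling. In the clones at 6 h 0 rose and 8 fell of 16 tested (median log2 fold change -0.49), with Socs3 (-2.10 ± 0.17) and Klf4 (-1.22 ± 0.17) lowest, where 20.3% of all genes passed. At 74 h 0 rose and 16 fell of 16 tested (median log2 fold change -3.83), beside 73.7% of all genes. The late change was weaker in E14, where at 72 h 1 rose and 13 fell of 16 tested (median log2 fold change -1.49), beside 59.7% of all genes. Genes listed as RA targets answered in every set. Of 13 such genes, 11 rose and 0 fell of 13 tested (median log2 fold change 2.90) in E14 at 6 h, 11 rose and 0 fell of 13 tested (median log2 fold change 3.48) in SCC1-mAID cells, and 12 rose and 0 fell of 13 tested (median log2 fold change 3.52) in the clones at 6 h, where 3.96%, 2.57% and 20.3% of all genes passed. Cyp26a1, the enzyme that clears RA, changed by 4.44 ± 0.38, 6.76 ± 0.28 and 7.15 ± 0.38 in the same order.

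Markers of differentiated cells rose at the late times at which Pou3f1 and Zic5 fell and Sox3 rose. At 72 h in E14, 11 rose and 0 fell of 13 tested (median log2 fold change 3.57) among anterior neural and neural progenitor genes, and 12 rose and 0 fell of 14 tested (median log2 fold change 3.64) among extra-embryonic endoderm genes, where 59.7% of all genes passed in either direction. Among these Zic1 (6.33 ± 0.57) and Irx3 (4.94 ± 0.47) rose most of the neural genes, and Sox17 (5.87 ± 0.54) and Cubn (5.75 ± 0.51) of the endodermal ones. The summed level of the 15 endodermal genes was 3574 to 5828 CPM at 72 h against 1498 and 1564 at 0 h. In the clones at 74 h, 14 rose and 0 fell of 14 tested (median log2 fold change 4.03) and 15 rose and 0 fell of 15 tested (median log2 fold change 3.81) in these lists, where 73.7% of all genes passed. Whether cells with these markers had a part in the members' late changes was not tested.

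Among themselves, Otx2 and Foxd3 had the closest pattern. Over the 32 group means of log2 level, centred within each of the 3 tables, Pearson's r was 0.92 between Otx2 and Foxd3, 0.78 between Foxd3 and Zic5, 0.72 between Otx2 and Zic5, and 0.69 between Otx2 and Pou3f1. It was 0.35 between Zic2 and Zic5, and -0.85 between Foxd3 and Sox3. Groups of a time course share their untreated level and their libraries, so these values describe the data and carry no test. Among 13606 other genes, the most alike were Platr7 (0.95) and Pfkp (0.95) for Otx2, Bcl3 (0.97) and Zfp459 (0.96) for Foxd3, and Tmem54 (0.94) and Pde2a (0.93) for Pou3f1. For Zic5 they were Mir124a-1hg (0.94) and Prmt8 (0.90), and for Sox3 Slit2 (0.94) and Smarcc2 (0.93). For Zic2 the highest values were lower, with Pank1 at 0.67 and Usp31 at 0.64.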

How the data were processed

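The values are normalised read counts per RefSeq transcript, a signal that the authors made by dividing each library's reads by 1 size factor, per the file headers and the submitters' processing notes, which name STAR, Bowtie2, SAMtools and DESeq2 with the builds mm10 and dm6 and no versions. Fly cells were added to each sample for calibration, per the labels' protocols. The E14 table also holds FPKM values computed by the authors, and the time in h at which the authors' deposited table (a score) classes a transcript as changed. Versions and settings of the alignment are not given in the sources used here. E14 values count exonic reads and nuclear values count the whole gene span, so levels were not compared between the sets.

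Whole reads were recovered from the steps of each column (at least 99.9966% of values whole, tolerance 0.1 read). For each symbol the transcript with the highest mean share of reads was kept, which for Otx2 differed between E14 and the nuclear sets. Tests were edgeR 4.0.16 quasi-likelihood fits in R 4.3.3 (robust, TMM, filterByExpr, all groups of a set in 1 fit), with Benjamini-Hochberg adjustment over 15084 genes (E14), 14031 (SCC1-mAID) or 15923 (clones). The SE is the size of the change over the root of its F statistic. On simulated data with known changes the fit recovered 75% of 2-fold and 93% of 4-fold changes for E14 at 4 h, 81% and 99% for SCC1-mAID with RA, and 92% and 96% for the clones at 4 h, among 15084, 14031 and 15923 genes. Calls among unchanged genes numbered 7, 14 and 9 in the same order. The simulated libraries of a group shared 1 mean per gene, without the split of E14 libraries by number described above. Their spread followed the level of a gene alone. These shares therefore need not hold for genes of wider spread in any set, or for genes that followed that split, such as Otx2. Alternatives used DESeq2 1.42.0, limma 3.58.1 on log2 of the deposited value plus 1, other size factors, no filter, only the compared groups, the replicate number as a block, libraries 3 and 4 alone and each library left out.

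The members and all gene lists were chosen with earlier results of these data known. All 6 members are named in each comparison. Of other lists at most 2 rising and 2 falling genes with the largest change that passed are named, relatives (1 of them is not reported here) and nearest neighbours where they were tested, and the 2 genes most like each member. Contrasts between successive times and of single deletion clones were added after the data were seen.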

Additional observations from a re-analysis of the deposited data

Results flagged for a closer look

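Within groups of 4 E14 libraries, 2 of 30 member groups had a library far from the rest by Dixon's test, which by chance picks about 1 in 20 groups. Otx2 at 48 h read 3.71 CPM in library 2, where the next library read 2.44 and the farthest 2.21. Zic2 at 6 h read 37.9 in library 1, where the next read 65.6 and the farthest 70.2.

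The RA response of clone H12 differed from that of G4 by a test of the difference itself in 3 of 36 tests, 1 at 48 h, where 4.23% of all genes passed, and 2 at 74 h, where 12.4% did. By the same edgeR test 0 of 36 passed for E3 against G4, with 1 at an unadjusted p under 0.05; DESeq2 and limma were not run on these contrasts. For Pou3f1 the difference was 2.30 ± 0.46 at 48 h (edgeR, adjusted p = 0.00303) and 1.94 ± 0.57 at 74 h (adjusted p = 0.0228). For Otx2 it was 5.06 ± 1.58 at 74 h (adjusted p = 0.0328), a fitted size that depends on the absence of Otx2 reads in both G4 libraries.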

How the results depend on the processing

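Over the alternatives run, 356 counts of members stayed within 1.5 times the reported count and 22 did not, and no value that passed changed its sign. The count of members that passed in E14 was 1 at 2 h and became 2 with libraries 3 and 4 alone. At 4 h it was 2 and became 1 with the authors' size factors, with limma and with only the compared groups. At 6 h it was 3 and became 1 with limma. In SCC1-mAID the 2 with RA became 0 with the authors' size factors and 0 with limma, and the 2 with RA under auxin became 1 with limma. For auxin alone the 0 became 1 without the filter and 1 with DESeq2, in both cases Pou3f1. The 7 clone tests of E3 against H12 became 11 with limma. The cause of these changes was not tested.

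Leaving out 1 library gave 1 to 1 members in E14 at 2 h, 1 to 2 at 4 h, 1 to 2 at 6 h, 2 to 4 at 24 h, 5 to 5 at 48 h and 5 to 5 at 72 h. At 4 h the count was 1 without 0 h library 3 or 4, or without 4 h library 1 or 4. At 6 h it was 1 without 0 h library 3 or 4, or without 6 h library 2, and at 24 h it was 2 without 0 h library 3. In SCC1-mAID the range was 2 to 2 with RA, 2 to 4 with RA under auxin (4 without the second library of both agents, which adds Zic2 and Zic5), 0 to 0 with auxin and 0 to 0 for the difference of responses. In the clones it was 2 to 2, 2 to 3, 2 to 4, 3 to 5, 5 to 6 and 6 to 6 from 2 h to 74 h, 7 to 9 for deletion against wild type, 5 to 8 for E3 against H12 and 0 to 0 for the response difference. Otx2 at 6 h in E14 ran from -2.79 to -2.04 (adjusted p 0.0176 to 0.207).

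The replicate number as a block gave 2 members in E14 at 2 h and 1 with auxin alone. Same-numbered libraries of different groups deviated together in a part of the pairs (r over 0.1 in 28 of 67 E14, 10 of 18 SCC1-mAID and 180 of 420 clone pairs). Their median r was 0.069, 0.15 and 0.082 in the same order, against -0.017, -0.084 and -0.082 for pairs with other numbers. In the clones the 2 libraries of a group deviate from their mean by equal and opposite amounts. The clone value for other numbers thus mirrors the first by construction and is no separate comparison, and each clone correlation is counted under both numbers. The main fits did not take the numbers as a pairing, so a shift shared by a number stays in their spread. The authors' size factors moved the median of all genes by 0.27 on the log2 scale in E14 at 72 h (5886 genes higher and 2800 lower, against 4587 and 4423 with TMM), by 0.19 with RA in SCC1-mAID (72 and 0, against 260 and 101), by -0.14 with RA under auxin (42 and 5, against 256 and 114) and by -0.33 for the difference of responses. In E14 at 6 h they gave 247 genes higher and 390 lower, against 326 and 271 with TMM. A fit with only the compared groups was not run for the difference of responses, which uses all 4 groups. Sox3 in nuclear RNA, Otx2 at 72 h in E14, and Otx2 and Foxd3 after 24 h in the clones rest on few reads.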

Other observations

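Other lineages were read as lists, at times when 59.7% of all genes passed in E14 (72 h) and 73.7% in the clones (74 h). Among primitive streak and mesoderm genes, 1 rose and 0 fell of 7 tested (median log2 fold change -0.46) in E14 at 72 h and 2 rose and 1 fell of 6 tested (median log2 fold change 0.13) in the clones at 74 h. Among trophoblast genes, 4 rose and 2 fell of 8 tested (median log2 fold change 1.38) and 4 rose and 1 fell of 6 tested (median log2 fold change 2.07) at the same times. Among general pluripotency genes, 0 rose and 9 fell of 11 tested (median log2 fold change -1.74) and 0 rose and 10 fell of 11 tested (median log2 fold change -2.75).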
